A study of Homo sapiens with 6 samples.

Results

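The enzymes that make and salvage deoxynucleotides were followed in U373, a human glioblastoma cell line, through all probe sets whose platform annotation gives 1 of the symbols TYMS, TK1, RRM1, RRM2, DUT, DCK and DTYMK and no other symbol. A probe set is a group of short oligonucleotides on the array that together read 1 transcript. The 7 genes were read by 9 of the 12558 probe sets that are not array controls, with 2 each for TYMS and TK1 and 1 for each of the other genes. Levels were measured on 6 Affymetrix Human Genome U95 Av2 arrays, 1 per condition, as MAS5 signal, which is linear and which the authors had scaled so that every array has nearly the same trimmed mean. PonA (ponasterone A) is an insect-type steroid used to turn on ecdysone-inducible constructs.

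The 5 arrays of syk-transfected cells covered ethanol with 10 µM PonA at day 1, ethanol alone at day 1, no treatment at day 1, ethanol with 10 µM PonA at day 2, and no treatment at day 2. The last array held untransfected, untreated cells at day 1. SYK is a tyrosine kinase, and the construct is inducible, so every comparison of PonA below is in cells that carry it. Each condition stands on 1 array, PonA was not given to untransfected cells, and day 2 lacks an ethanol array. Nothing in the labels says whether the cultures were independent or the transfected cells a single clone. Exposure to PonA is labelled as 6 to 48 hours over the whole series, without a value per array.

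Deoxynucleotides are the building blocks of DNA, and dividing cells make most of them shortly before and during S phase. Ribonucleotide reductase, formed by the RRM1 and RRM2 proteins, turns ribonucleotides into deoxynucleotides. Thymidylate is made in a branch of its own, where DUT supplies dUMP, TYMS methylates it to dTMP and DTYMK phosphorylates dTMP, while TK1 and DCK salvage nucleosides from outside the pathway. Transcripts of several of these enzymes rise towards S phase under E2F transcription factors, and the drug 5-fluorouracil acts in part by blocking the TYMS protein.

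The sequences upstream of 5 of the genes are shown so that the motifs of cell cycle promoters can be seen beside the values. They are the 250 bases before a RefSeq start in GRCh38.p14, read 5′ to 3′ on the gene's strand, and were picked after the values were seen. Capitals mark E2F motifs (TTTCGCGC, TTTGGCGC, TTTCCCGC or TTTGCCGC), CCAAT boxes (CCAAT) and CHR elements (TTTGAA or TTCGAA), on either strand.
TYMS, chr18:657403-657652, plus strand: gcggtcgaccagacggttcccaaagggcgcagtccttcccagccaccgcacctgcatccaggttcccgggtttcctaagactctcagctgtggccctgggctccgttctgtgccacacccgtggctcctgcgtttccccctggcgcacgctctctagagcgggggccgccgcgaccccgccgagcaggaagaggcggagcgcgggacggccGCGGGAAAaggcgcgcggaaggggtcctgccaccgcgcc
TK1, chr17:78187053-78187302, minus strand: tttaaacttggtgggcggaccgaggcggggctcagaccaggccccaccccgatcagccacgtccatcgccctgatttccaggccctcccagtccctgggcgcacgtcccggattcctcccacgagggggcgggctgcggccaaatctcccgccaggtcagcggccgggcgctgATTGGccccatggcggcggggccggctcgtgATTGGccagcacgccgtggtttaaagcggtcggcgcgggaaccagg
RRM2, chr2:10122489-10122738, plus strand: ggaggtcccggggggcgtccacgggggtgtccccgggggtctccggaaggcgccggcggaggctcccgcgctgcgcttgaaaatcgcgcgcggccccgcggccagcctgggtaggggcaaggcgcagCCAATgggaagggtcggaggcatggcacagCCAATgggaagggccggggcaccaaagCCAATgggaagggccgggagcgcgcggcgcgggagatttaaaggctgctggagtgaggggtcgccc
DUT, chr15:48331947-48332196, plus strand: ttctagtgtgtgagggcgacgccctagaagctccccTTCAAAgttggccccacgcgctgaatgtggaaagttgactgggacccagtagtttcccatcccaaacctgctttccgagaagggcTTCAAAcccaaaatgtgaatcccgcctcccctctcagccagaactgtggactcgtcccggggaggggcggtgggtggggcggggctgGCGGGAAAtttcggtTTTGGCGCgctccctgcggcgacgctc
DTYMK, chr2:241686816-241687065, minus strand: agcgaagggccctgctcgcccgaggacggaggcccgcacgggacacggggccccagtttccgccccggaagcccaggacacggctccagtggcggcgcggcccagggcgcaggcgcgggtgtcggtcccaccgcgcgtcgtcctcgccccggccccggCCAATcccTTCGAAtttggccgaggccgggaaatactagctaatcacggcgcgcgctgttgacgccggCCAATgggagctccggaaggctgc

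Motifs were counted over windows of 300 bases, 250 before and 50 after each RefSeq start, of which the 7 genes have 12. An E2F motif stood in 3 of the 12 windows, against 3.31% of 35116 promoter windows of all genes, a CCAAT box in 5 of 12 against 34.6%, and a CHR element in 3 of 12 against 16.4%. TYMS held 1 E2F motif, at positions -39 to -32 from the start, and neither of the other motifs. The DUT window shown held 2 E2F motifs, at -42 to -35 and at -27 to -20, and DCK 1 behind its start. DUT has 4 windows and TK1 has 2, and the windows of DUT and TK1 that are not shown held none of these motifs. RRM1 held a CCAAT box at -28 to -24 and a CHR element at -199 to -194. In the windows shown, RRM2 had CCAAT boxes beginning at -123, -93 and -66, TK1 at -77 and -46, and DTYMK at -92 and -24, where its CHR element begins at -84. A match is a description of these letters and says nothing of binding. No match overlapped another, except that TTCGAA reads the same on both strands.

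All 9 probe sets lay above the floor, the 40th percentile of an array's signals at 22.7 to 26.5, on all 6 arrays. On all 9, both PonA arrays read lower than each of the 3 transfected arrays without PonA, a pattern shown by 15.4% of the 7934 probe sets tested. TYMS and TK1 fell past the threshold on both of their probe sets, to 36.0% and 33.7% of the level without PonA for TYMS and to 39.6% and 26.7% for TK1. RRM1, RRM2 and DTYMK had estimates of similar size that did not pass, and DUT and DCK had the smallest. In cells profiled in bulk, fewer cells making a transcript and less of it in each cell cannot be told apart.

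**Figure D1:**
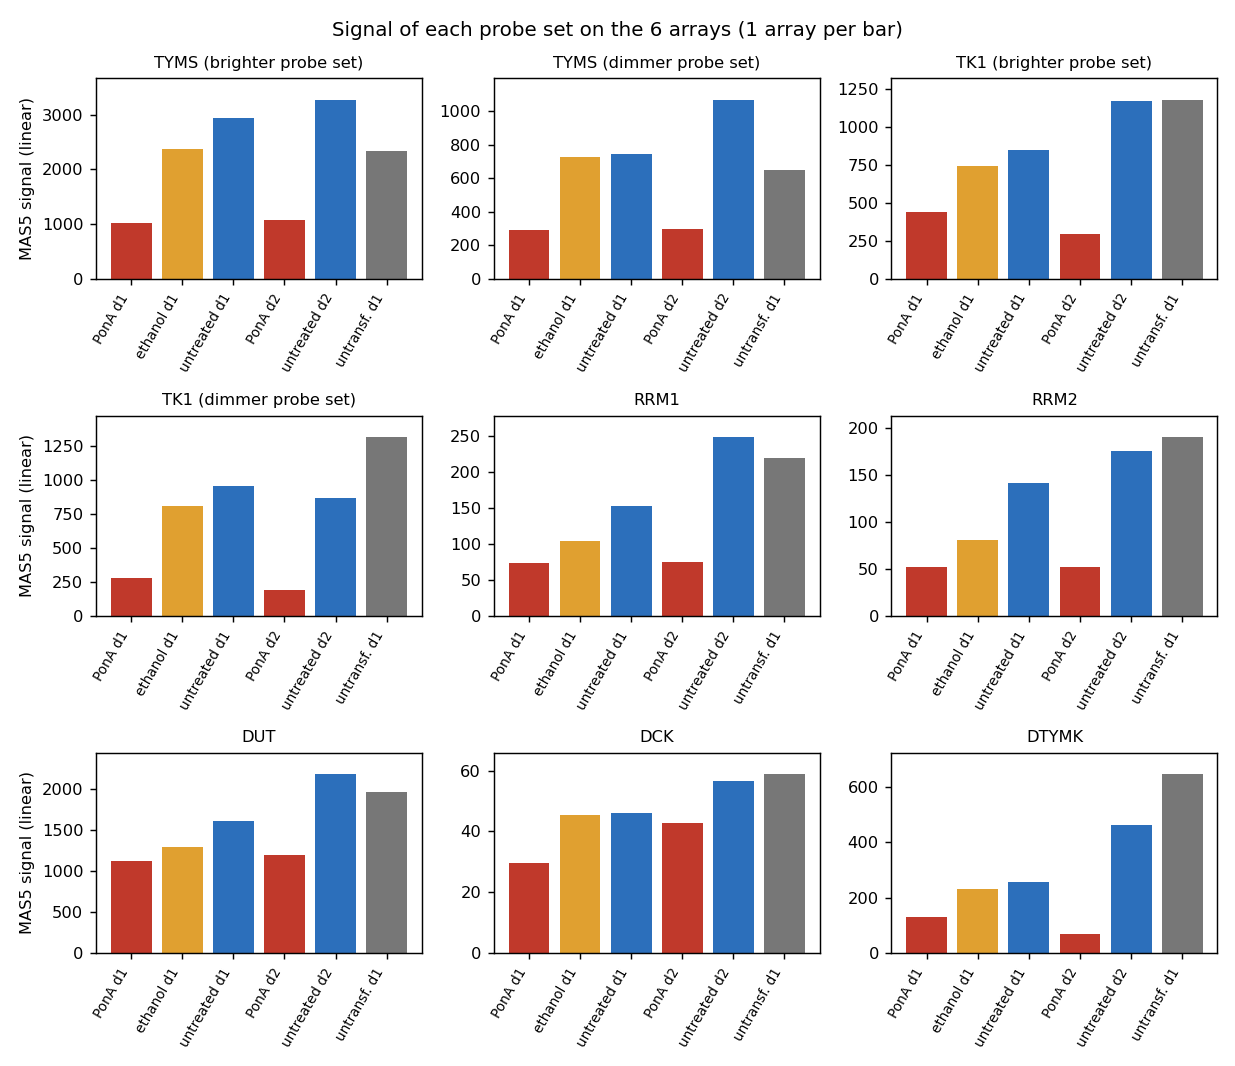
MAS5 signal (linear, each panel from 0) of the 9 probe sets on the 6 arrays, 1 bar per array and no error bars since no condition was repeated. In each panel the 2 red PonA bars are the lowest, with DCK at day 2, at 42.8 against 45.5 with ethanol, the closest to its controls.

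TYMS encodes thymidylate synthase. Its brighter probe set gave 1022 with PonA, 2377 with ethanol and 2931 untreated at day 1. At day 2 it gave 1065 with PonA against 3270 untreated, and untransfected cells gave 2329. The PonA arrays are the lowest and close to each other, and the lowest array without PonA is that of untransfected cells.

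The dimmer TYMS probe set gave 288 with PonA, 727 with ethanol and 746 untreated at day 1, 295 with PonA against 1069 untreated at day 2, and 649 in untransfected cells. The order of the 6 arrays was the same on both TYMS probe sets. The log2 PonA effect, from limma with a PonA and a day term on the 5 arrays of transfected cells, was -1.48 ± 0.19 (SE) on the brighter probe set (adjusted p = 0.00994) and -1.57 ± 0.19 on the dimmer one (adjusted p = 0.00863). These are 2.78-fold and 2.97-fold lower levels, with 95% intervals of -1.92 to -1.03 and -2.03 to -1.11 on the log2 scale. With 1 array per condition, the 2 residual degrees of freedom hold the ethanol difference and the difference of the PonA effects between days. Each p-value is set against those, pooled with the same residuals of all tested probe sets (4.48 prior degrees of freedom), and not against replicate cultures.

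TK1 encodes the thymidine kinase of the cytosol. Its brighter probe set gave 440 with PonA, 745 with ethanol and 853 untreated at day 1, 298 with PonA against 1173 untreated at day 2, and 1181 in untransfected cells. Its dimmer probe set gave 275 with PonA, 811 with ethanol and 959 untreated at day 1, 189 with PonA against 870 untreated at day 2, and 1318 in untransfected cells. On both, the day-2 PonA array was the lowest and the untransfected array the highest. The log2 effect was -1.34 ± 0.28 (SE, limma, adjusted p = 0.0479) and -1.90 ± 0.20 (adjusted p = 0.00569). The probe sets differ in size, as in the day-1 comparison with ethanol, where PonA was 1.69-fold lower on the brighter and 2.95-fold lower on the dimmer one.

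DCK, the deoxycytidine kinase that salvages several deoxynucleosides and activates nucleoside drugs such as cytarabine, lay near the floor. It gave 29.6 with PonA, 45.5 with ethanol and 46.1 untreated at day 1. At day 2 it gave 42.8 with PonA against 56.6 untreated, and untransfected cells gave 58.8. The groups do not overlap, but the day-2 PonA array stood close to the ethanol array of day 1. The log2 effect was -0.53 ± 0.17 (SE, limma, adjusted p = 0.144), with a 95% interval of -0.94 to -0.13. Of the 9 probe sets, DCK had the smallest day-2 difference, 1.32-fold, and a PonA signal 1.44-fold higher at day 2 than at day 1.

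RRM1 encodes the large, catalytic subunit of ribonucleotide reductase. It gave 72.9 with PonA, 104 with ethanol and 152 untreated at day 1. At day 2 it gave 75.2 with PonA against 248 untreated, and untransfected cells gave 219. The PonA signals of the days were close, so the wider gap at day 2 came with a higher untreated signal. The log2 effect was -1.19 ± 0.28 (SE, limma, adjusted p = 0.0696), with a 95% interval of -1.87 to -0.51.

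RRM2 encodes the small subunit, which carries the tyrosyl radical and is the subunit most tied to S phase. It gave 52.4 with PonA, 80.9 with ethanol and 141 untreated at day 1, 51.4 with PonA against 175 untreated at day 2, and 190 in untransfected cells. The ethanol array stood between the PonA arrays and all others, as it did on every other probe set but those of TYMS. The log2 effect was -1.34 ± 0.30 (SE, limma, adjusted p = 0.0588), with a 95% interval of -2.06 to -0.62. RefSeq names 3 pseudogenes after RRM2, 8 after DUT and 2 after TYMS, and how far their transcripts reach these probe sets was not tested.

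DUT encodes the enzyme that breaks down dUTP and so keeps uracil out of DNA. It gave 1124 with PonA, 1298 with ethanol and 1614 untreated at day 1. At day 2 it gave 1197 with PonA against 2182 untreated, and untransfected cells gave 1964. PonA over ethanol at day 1 was -0.21 on the log2 scale, the smallest such gap of the 9 probe sets. The log2 effect was -0.58 ± 0.21 (SE, limma, adjusted p = 0.188), with a 95% interval of -1.07 to -0.08.

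DTYMK, thymidylate kinase, acts on the dTMP that both TYMS and TK1 make. It gave 129 with PonA, 230 with ethanol and 255 untreated at day 1. At day 2 it gave 69.1 with PonA against 461 untreated, and untransfected cells gave 647. The day-2 PonA array was the lowest and the untransfected array the highest. The log2 effect was -1.70 ± 0.39 (SE, limma, adjusted p = 0.0647), with the largest SE of the 9 probe sets and a 95% interval of -2.64 to -0.75.

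**Figure D2:**
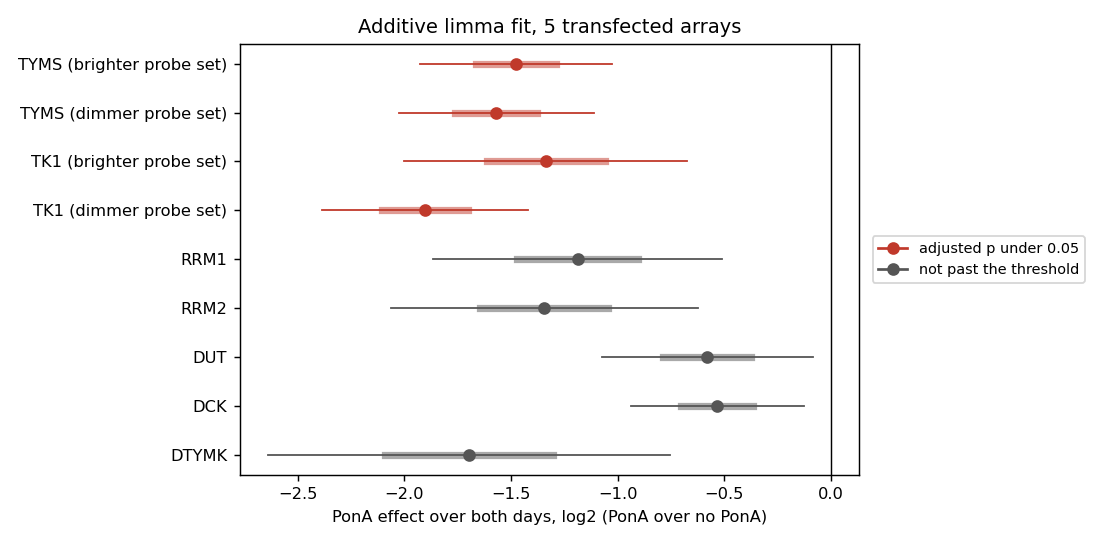
Log2 PonA effect (PonA over no PonA) of the 9 probe sets in the additive limma fit over 5 transfected arrays, with thick bars for ± 1 SE and thin bars for the 95% interval. The 4 probe sets of TYMS and TK1 passed an adjusted p of 0.05, and all 9 estimates lie below 0, between -1.90 and -0.53.

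By this fit 4 of the 9 probe sets, standing for 2 of the 7 genes, fell and 0 rose, where 2.37% of the 7934 probe sets tested fell and 2.7% rose. All 9 had an unadjusted p under 0.05, as did 19.5% of the 7934. With the brighter probe set for TYMS and TK1, the median log2 effect of the 7 genes was -1.34, against 0.01 over the 5718 genes tested. The calls moved with single arrays. Leaving out either day-2 array rests the effect on day 1 alone, and calls were then lost both among the 9 and over all probe sets. The log2 effect was then -1.37 for the brighter TYMS probe set and -0.86 for the brighter TK1 probe set. Without the day-1 PonA array the brighter TYMS probe set had an adjusted p of 0.0511, over a range of 0.000424 to 0.0724 in all alternatives. Without the ethanol array 7 of the 9 passed, RRM1, RRM2 and DTYMK among them, while the share over all probe sets was 9.34% of 7765. On day 1 alone the effect was -0.91 for DTYMK, -0.79 for RRM1 and -0.37 for DUT, and without the day-1 PonA array it was -2.74 for DTYMK. The brighter TK1 probe set did not pass under quantile normalization (adjusted p = 0.0654) or with a floor at the 25th percentile (adjusted p = 0.125), over a range of 0.00813 to 0.241.

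Against ethanol at day 1, the comparison that shares the solvent, PonA gave lower signals on 9 of 9 probe sets (47% of the 8000 probe sets that exceed the floor on either array did). Of the 9, 3 were at least 2-fold lower, both of TYMS and the dimmer one of TK1, against 2.4% of the 8000. The median log2 difference of the 7 genes was -0.63, against 0.02 over all 5749 genes. These and the following comparisons set 1 array against 1 and have no test. Spike-in controls had a geometric mean of 501 with PonA and 271 with ethanol at day 1, and their part in this comparison was not tested.

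Against untreated cells 5 of the 9 probe sets were at least 2-fold lower with PonA at day 1 (3.12% of 8036) and 7 of the 9 at day 2 (4.04% of 7990). The median log2 difference of the 7 genes was -0.99 at day 1 and -1.72 at day 2. The day-1 comparisons with ethanol and with no treatment share the PonA array. At day 2 DTYMK was 6.68-fold lower with PonA, the dimmer TK1 probe set 4.60-fold, RRM2 3.40-fold, RRM1 3.30-fold and the brighter TYMS probe set 3.07-fold, while DUT was 1.82-fold lower. At both days and against either control, 3 of the 9 were at least 2-fold lower, which held for 1.3% of 7934 probe sets.

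**Figure D3:**
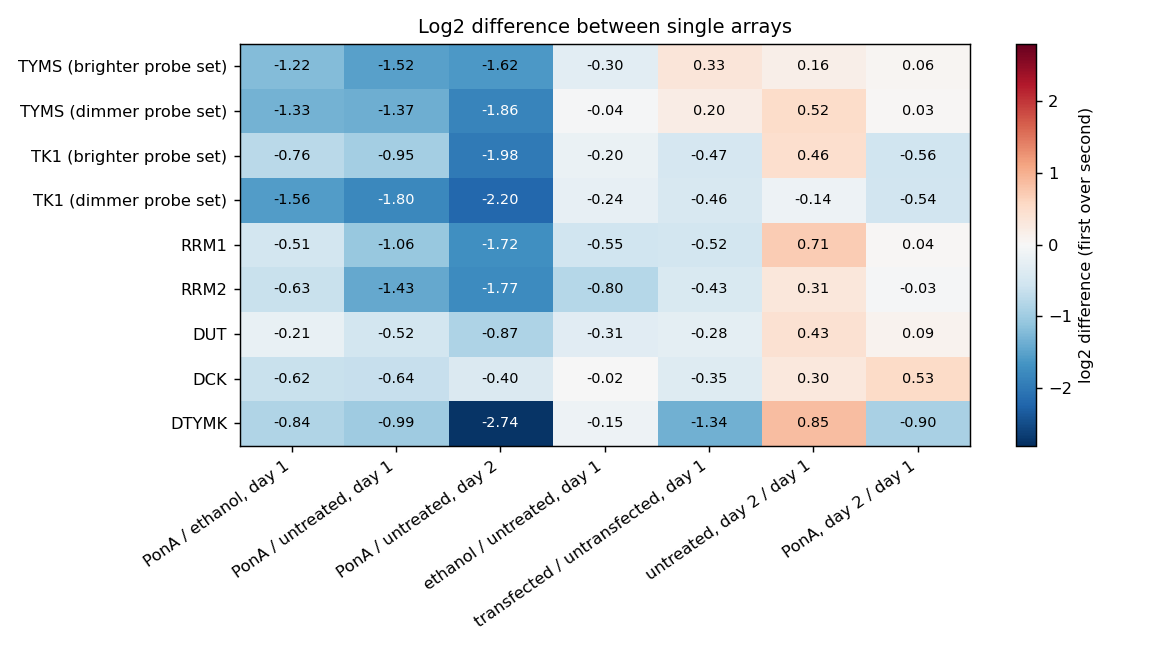
Log2 difference between pairs of single arrays (columns, first over second) for the 9 probe sets (rows), blue for lower and red for higher. The first 3 columns, with PonA on top, are below 0 in every row, from -2.74 for DTYMK at day 2 to -0.21 for DUT against ethanol, and the column for untreated cells at day 2 over day 1 is above 0 in all rows but the dimmer TK1 probe set.

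Ethanol alone also went with lower signals: 9 of 9 probe sets read lower with ethanol than untreated at day 1, where 51.6% of 8015 probe sets did, and 0 of the 9 were 2-fold apart, as 2.18% were. The gap was widest for ribonucleotide reductase, at -0.80 on the log2 scale for RRM2 and -0.55 for RRM1. It was -0.30 on the brighter and -0.04 on the dimmer TYMS probe set, and -0.02 for DCK, which turned to 0.04 under quantile normalization. For RRM2 the step from ethanol to PonA was -0.63 and so no larger than the step from untreated cells to ethanol. The same held for RRM1, at -0.51 against -0.55, and for DUT, at -0.21 against -0.31. On the probe sets of TYMS, TK1, DCK and DTYMK the step from ethanol to PonA was the larger, at -1.22 for the brighter TYMS probe set. The spike-in controls had a geometric mean of 271 with ethanol and 474 untreated at day 1, and their part in these differences was not tested.

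Untreated cells at day 2 gave higher signals than at day 1 on 8 of 9 probe sets, where 43.2% of 8003 probe sets did. DTYMK was 1.81-fold higher, RRM1 1.63-fold, the dimmer TYMS probe set 1.43-fold and DUT 1.35-fold. TK1 was split, at 0.46 on the log2 scale on its brighter and -0.14 on its dimmer probe set, so no direction is given for it. The 3′ to 5′ ratio of beta-actin, a measure of RNA integrity, was 1.21 in untreated cells at day 2 and 0.987 at day 1, and its part here was not tested.

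Under PonA the days differed less in size than in untreated cells for TYMS, RRM1, RRM2 and DUT, and more for TK1, DTYMK and DCK. The signal at day 2 over day 1 was between -0.03 and 0.09 on the log2 scale for both TYMS probe sets, RRM1, RRM2 and DUT, with that of RRM2 turning to 0.10 under quantile normalization. It was -0.56 and -0.54 on the TK1 probe sets, -0.90 for DTYMK and 0.53 for DCK. Thus 4 of 9 were lower at day 2, where 56.7% of 7941 probe sets were.

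A limma fit with a PonA-by-day term asked if the effect of PonA changed with the day, with 1 residual degree of freedom. No probe set passed (0 of 7934, 0%), while 330 (4.16%) had an unadjusted p under 0.05, or 283 (3.57%) under quantile normalization. At day 1 this fit sets PonA against the mean of the ethanol and untreated arrays, and at day 2 against the untreated array alone. Ethanol read lower than untreated on 9 of 9 probe sets, so these unlike controls move the term downward. Against untreated cells at day 1 and day 2, RRM2 differed by -1.43 and -1.77 (term -0.74), and DTYMK by -0.99 and -2.74. The term was negative, meaning a larger gap at day 2 than against the mixed controls of day 1, on 8 of the 9 probe sets. The share of negative terms over all probe sets was not counted, so this count has no baseline. It was -1.83 ± 0.40 for DTYMK (SE, limma, adjusted p = 0.917, unadjusted p = 0.00253) and -1.12 ± 0.40 for the brighter TK1 probe set (adjusted p = 1.00, unadjusted p = 0.0275). For DCK, the exception, it was 0.22 with a 95% interval of -0.70 to 1.15.

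Transfected cells without inducer were set against untransfected cells, both untreated at day 1. Of the 9 probe sets 7 read lower in transfected cells (46.5% of 8045 did), and 1, DTYMK, was at least 2-fold lower (2.64% did), at 255 against 647 or 2.53-fold. RRM1 differed by -0.52, RRM2 by -0.43 and the TK1 probe sets by -0.47 and -0.46 on the log2 scale. TYMS went the other way on both probe sets, at 0.33 and 0.20. In transfected untreated cells at day 2, both TYMS probe sets, RRM1 and DUT exceeded the untransfected level, which was read at day 1. The values were 3270 against 2329 and 1069 against 649 for TYMS, 248 against 219 for RRM1 and 2182 against 1964 for DUT. The other probe sets stayed below it.

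The cells were checked by markers of glia, neurons and blood cells. The astroglial genes VIM, CD44, FABP7 and GFAP were above the floor on all 6 arrays, with GFAP at 103 to 229 in transfected and 1533 in untransfected cells, and AQP4 was under the floor throughout. SLC1A3, a glutamate transporter gene, gave 193 and 225 with PonA against 22.8, 38.8 and 24.0 in transfected cells without it, and 82.0 in untransfected cells. S100B was above the floor on 5 arrays. Of the other lists, the neuronal SNAP25 and the blood cell genes PTPRC and CD14 lay under the floor on all arrays, SYT1 lay above it on 2, and CD3E on all. GAP43, a growth cone gene, gave 64.7 and 75.7 with PonA against 184, 219 and 322 in transfected cells without it, and its part and that of SLC1A3 in the results for the 7 genes were not tested. Across probe sets, pairs of arrays had Pearson correlations of log2 signal between 0.933 and 0.961. The spike-in level lay between 271 and 501 on the transfected arrays and was 157 on the untransfected one.

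Of 36 other genes of deoxynucleotide and folate metabolism, 27 have a probe set with that symbol alone and 23 were tested, of which 1 fell and 1 rose, and the median log2 effect was -0.03. NUDT1, which clears oxidised purine nucleotides from the pool, fell to 154 with PonA against 437 with ethanol and 378 untreated at day 1, and to 136 with PonA against 413 untreated at day 2. Its log2 effect was -1.49 ± 0.18 (SE, limma, adjusted p = 0.00787). NT5E, the nucleotidase of the cell surface, rose by 1.29 ± 0.23 (adjusted p = 0.0311), at 60.2 and 77.1 with PonA against 6.42 to 34.0 in transfected cells without it, the lowest of these under the floor. The mitochondrial kinases TK2 and DGUOK, which salvage the same kinds of nucleosides as TK1 and DCK, had effects of 0.25 ± 0.31 (adjusted p = 0.725) and -0.24 ± 0.21 (adjusted p = 0.610). DCTD, the deaminase that supplies dUMP from dCMP, had one of -0.24 ± 0.17 (adjusted p = 0.502).

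Lists of neighbouring functions, with 1 probe set per gene, were set beside the 7 genes. Of all 5718 genes tested 133 fell and 152 rose. Among replication fork genes 4 of 17 fell and 0 rose, with a median of -0.67, namely FEN1, POLA2, LIG1 and RPA3. Among MCM helicase and licensing genes 1 of 15 fell, MCM7, with a median of -0.43. Among cyclins, CDK1 and CDC25 genes 5 of 13 fell, CCNA2, CCNB1, CCNB2, CDC25B and CDC25C, with a median of -0.75 and effects down to -2.79 ± 0.27 for CCNB1 (SE, limma, adjusted p = 0.00463). Of 13 purine synthesis genes 0 passed in either direction, and the median was -0.13. The median of the 7 deoxynucleotide genes, -1.34, lay below all 5 of these medians, which were not tested against each other. Members and lists were chosen with earlier results of these data known, so this rank is a description only. CCNB1, CCNB2 at -2.77, CCNA2 at -2.20 and CDC25C at -2.06 fell further than any of the 7 genes.

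**Figure D4:**
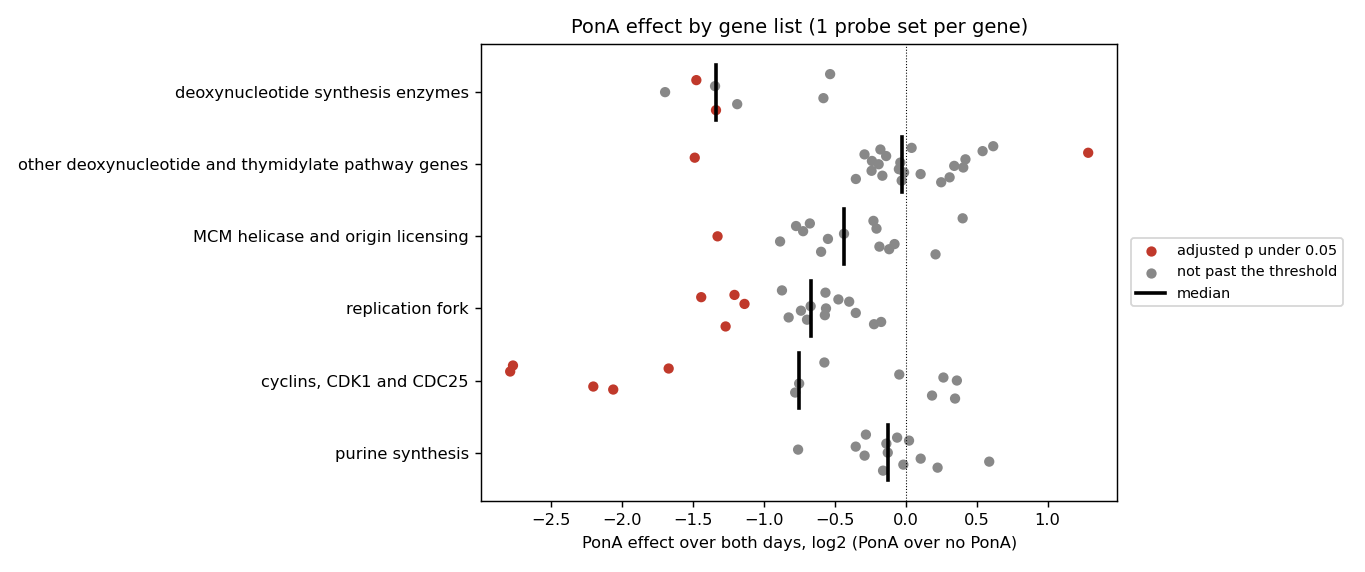
Log2 PonA effect (PonA over no PonA) of each tested gene in 6 lists, 1 point per gene and a black bar for the median, red where the adjusted p was under 0.05. The 7 deoxynucleotide synthesis genes lie between -1.70 and -0.53, while the other genes of the pathway centre on -0.03 and the cyclin list spreads from CCNB1 at -2.79 to values above 0.

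Likeness of profile was measured as the root mean square difference of log2 signals over the 6 arrays, each gene centred on its own mean, among 4782 genes above the floor on every array. Members were set aside, and of the other genes the nearest to the brighter TYMS probe set were PCLAF, a PCNA-binding protein gene, at 0.12, the lamin B receptor gene LBR at 0.15 and the microtubule regulator gene STMN1 at 0.16. Nearest to the brighter TK1 probe set were CKS1B, a subunit of cyclin-dependent kinases, at 0.12, BIRC5, which encodes survivin, at 0.14 and the kinesin gene KIFC1 at 0.15. Nearest to RRM2 outside the 7 genes were the myosin kinase gene MYLK at 0.10, FEN1 at 0.15 and RGS12, a regulator of G protein signalling, at 0.20. Among the 7 genes, the nearest to the brighter TYMS probe set was TK1 at 0.31, and the nearest to the brighter TK1 probe set was RRM2 at 0.25. Both lay further away than the other genes named for them. RRM1 was the nearest member to RRM2, at 0.16. PCLAF gave 679 with PonA, 1767 with ethanol and 2094 untreated at day 1, and 768 with PonA against 2152 untreated at day 2.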

How the data were processed

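The authors used MAS5, per the submitters' processing notes. Its version is not given in the sources used here, and detection calls were not used here. The deposited values are signal intensity on a linear scale, 1 value per probe set, and the 2% trimmed mean of each array lay between 150.07 and 150.08, so differences are relative to an array's mean. Of 12558 probe sets that are not controls, 10943 had 1 symbol in the platform annotation, 545 several and 1070 none, and symbols were updated through Entrez identifiers to RefSeq (GRCh38.p14). A floor was set at each array's 40th percentile before log2 was taken. Probe sets above it on at least 2 of 5 transfected arrays were tested with limma 3.58.1 in R 4.3.3 (lmFit, eBayes, Benjamini-Hochberg over 7934, threshold 0.05), with 2 residual and 4.48 prior degrees of freedom. Pairs of arrays were counted at 2-fold. The number of arrays limits the precision. The brightest probe set stands for a gene in lists. Every member probe set was named, list genes where they passed or differed 2-fold throughout, and a few to show the pathway. The members and lists were chosen with earlier results of these data known. The fit was also run on simulated data, but the outcome is not given here and no call rests on that run. Alternatives covered scaling, floor, filter, day term, variance prior and single arrays.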

Additional observations from a re-analysis of the deposited data

How the results depend on the processing

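The log2 PonA effect stayed negative in all 124 values of the 9 probe sets under the alternatives. These re-use the same 5 arrays, where both PonA arrays read lower than the others, so the sign could hardly turn. The 4 calls for TYMS and TK1 became 3 with quantile normalization, where 342 of 7934 probe sets were called. A floor at the 25th percentile also gave 3, with 169 of 9936 called. Without a filter on dim probe sets limma called 0 of the 9, and 29 of 12558 in all. There 9 of the 9 had an unadjusted p under 0.05, as did 15.4% of all. The 4 calls became 5 with log2 of signal plus 16 in place of a floor (490 of 7934 called). Without a day term 5 passed (363 of 7934). A filter at all 5 arrays gave 7 (434 of 6573), as did a trended variance prior (625 of 7934). So did the mean effect of the PonA-by-day fit (444 of 7934). Leaving out 1 array moved the calls among the 9 between 1 and 7 and those among all probe sets between 111 and 725, against 402. Over these 5 fits the dimmer TK1 probe set passed in 5, the dimmer TYMS probe set in 3, the brighter TYMS probe set in 2 and the brighter TK1 probe set in 3. The causes were not tested. Of 189 pair differences 2 turned, DCK for ethanol over untreated to 0.038 and RRM2 for PonA day 2 over day 1 to 0.099, both under quantile normalization. The PonA-by-day term called 0 under quantile normalization too, with 283 at an unadjusted p under 0.05. No paired analysis was possible because each condition stands on 1 array, and day was the only block. DCK lay near the floor, and its effect was -0.38 with log2 of signal plus 16 against -0.53 with the floor.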
